A study of Arabidopsis thaliana with 18 samples.

Results

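The comparison sets 3 arrays of Arabidopsis thaliana plants, numbered 7, 8 and 9 in their titles, against 3 numbered 4, 5 and 6, all from plants that received the surfactant silwet without salicylic acid (SA). The 6 arrays were chosen by treatment and title number, out of 18 in the series, and were paired by the replicate number in the title, so that array 4 stood beside array 7, array 5 beside array 8 and array 6 beside array 9. All 18 arrays came from the reference accession Col-0, hybridised to the Affymetrix ATH1 array, which measures each transcript with a set of short probes called a probe set. The plants of 9 arrays received 0.02% silwet alone, and those of the other 9 received SA, a hormone of plant defence, at 0.30 mM together with the same concentration of silwet. The labels give no tissue, plant age or harvest time. From knowledge of the study, harvests were made at several times after treatment, and the title numbers fall into 3 triplets per treatment, so arrays 4 to 6 are called the second triplet and arrays 7 to 9 the third. Their order in time is not given in the labels, so earlier, later, rose and fell here follow the title numbers. The question is what changed between the later harvests without SA. Whether the arrays of a triplet stand for separately grown plants is not stated, so a p-value here reflects the spread among these arrays alone, part of which may be technical.

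Silwet is an organosilicone surfactant that lets a spray wet and spread over the waxy leaf surface. Spraying, wetting and handling a plant are known to raise transcripts of touch, oxidative stress and defence genes for a short time, which then return toward their earlier levels. Plants also detoxify foreign or reactive compounds in steps, by oxidation, by conjugation to glutathione or to a sugar, and by export of the conjugates through membrane transporters.

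Transcripts of 8 probe sets fell between the second and the third silwet triplet, and no probe set rose past the threshold. The strongest fall was that of GSTU25, a glutathione transferase of the plant tau class, which conjugates glutathione to reactive compounds. It was 6.30-fold lower on the later arrays. The other probe sets that fell were those of AT2G04050, AT5G14730, AT1G19020, AT2G41730, AT2G32020 and AT1G03660, with falls between 2.48-fold and 3.93-fold, and probe set 264042_at, which the supplied annotation does not name. Values are log2 of the deposited signal after values below an array's 20th percentile were raised to it. Differences are means of the 3 within-pair differences ± SE, fitted with limma over 13652 probe sets and adjusted by the Benjamini-Hochberg method. At an adjusted p under 0.05, 0.0586% of the probe sets tested were lower and 0% higher. At an unadjusted p under 0.05 there were 481 lower (3.52%) and 622 higher (4.56%). The count of 8 depended on the pairing and on the spread of the first triplet, which entered the fit. It was 0 without the replicate block and 0 with the 6 arrays alone. It was also 0 without the pair of replicate 2 and without the pair of replicate 3, and 0 with 16 added to the signal in place of the floor.

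GSTU25 read 5.12, 5.66 and 6.95 log2 units on arrays 4, 5 and 6, and 2.68, 3.12 and 3.97 on arrays 7, 8 and 9. All 3 later arrays lay below all 3 earlier ones, and in both triplets replicate 1 was lowest and replicate 3 highest. The difference was -2.66 ± 0.21 log2 units, with a limma adjusted p of 0.00611, and the within-pair differences were -2.44, -2.54 and -2.98. In deposited signal, the later arrays read 6.4, 8.7 and 15.6, close to the arrays' 20th percentiles of 4.67 to 5.59, so the fold change has a dim end. With 16 added to the signal, the difference was -1.59 log2 units.

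AT2G04050, which belongs to the multidrug and toxic compound extrusion family of membrane transporters, read 5.79, 6.72 and 6.56 on arrays 4 to 6 and 4.25, 4.58 and 4.32 on arrays 7 to 9. The triplets did not overlap, and the 3 later arrays lay close together (SD 0.18). Its difference was -1.97 ± 0.21, with a limma adjusted p of 0.0309. AT2G32020, an acetyltransferase of the GNAT family, read 5.17, 6.07 and 6.65 against 3.93, 4.51 and 4.76. Again all later arrays were below all earlier ones. Its difference was -1.56 ± 0.19, with a limma adjusted p of 0.0309.

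The 2 transcripts with the highest signal among those that fell were AT2G41730 and 264042_at. AT2G41730 read 8.15, 9.13 and 9.97 on arrays 4 to 6 and 6.88, 7.29 and 7.56 on arrays 7 to 9. Its probe set is of a kind whose probes can also bind other transcripts, so its reading may include them. The difference was -1.84 ± 0.22. Probe set 264042_at read 7.84, 8.51 and 9.36 against 6.80, 7.15 and 7.41, a difference of -1.45 ± 0.18. In both, the order of the replicates was the same in the second as in the third triplet, with replicate 1 lowest and replicate 3 highest, and the triplets did not overlap. The limma adjusted p was 0.0309 for each.

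AT5G14730 read 4.83, 5.41 and 5.81 on arrays 4 to 6 and 2.93, 3.99 and 3.76 on arrays 7 to 9, a difference of -1.79 ± 0.21. Its later signals of 7.6, 15.9 and 13.5 were also dim, and with 16 added to the signal the difference was -1.03. AT1G19020 read 7.69, 8.08 and 8.34 against 5.88, 7.00 and 6.65, a difference of -1.53 ± 0.18. In both, array 7 was the lowest of the later arrays, and no later array reached the lowest earlier one. AT1G03660, an ankyrin-repeat protein, read 5.95, 6.38 and 7.13 against 4.77, 5.13 and 5.62, a difference of -1.31 ± 0.16. All 3 had a limma adjusted p of 0.0309. The functions of AT5G14730, AT1G19020 and AT2G41730 are not described in the tables used here.

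**Figure D1:**
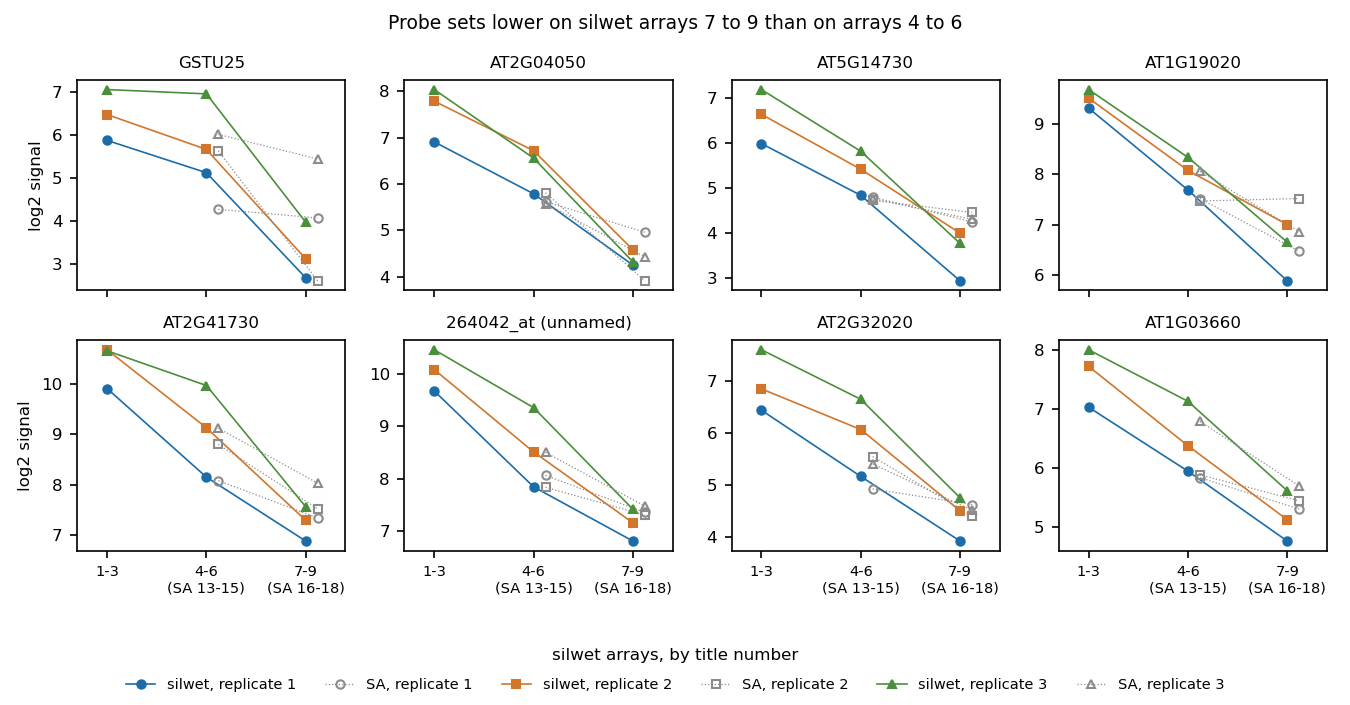
Log2 signal (vertical axis, a separate range in each panel) of the 8 probe sets lower on silwet arrays 7 to 9 than on arrays 4 to 6, for each silwet triplet, with filled symbols joined by replicate number and SA arrays 13 to 18 as open grey symbols. In every panel the 3 later silwet arrays lie below the 3 earlier ones, and for GSTU25 they read between 2.68 and 3.97.

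The first silwet triplet, arrays 1 to 3, also from silwet-treated plants, gives a further level of these transcripts. The series holds no array of untreated plants. All 8 had their highest mean there. AT1G19020 averaged 9.51 ± 0.18 (SD, n = 3) in the first triplet, 8.04 ± 0.33 in the second and 6.51 ± 0.57 in the third. The corresponding means of AT2G41730 were 10.42 ± 0.44, 9.08 ± 0.91 and 7.24 ± 0.34. Those of GSTU25 were 6.46 ± 0.59, 5.91 ± 0.94 and 3.26 ± 0.66. Both steps share arrays 4 to 6, so a high or low second triplet moves them in opposite directions and their differences are given side by side. From the first to the second triplet, 51 probe sets were lower (0.374% of those tested) and 4 higher (0.0293%) at a limma adjusted p under 0.05. The difference over that earlier step was -0.55 ± 0.21 for GSTU25 with a limma adjusted p of 0.363, and -1.47 ± 0.18 for AT1G19020 with a limma adjusted p of 0.0209. For AT2G04050 it was -1.23 ± 0.21, with a limma adjusted p of 0.0577.

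Other transcripts were lower in all 3 pairs by at least 2-fold on average without passing the threshold. AT2G21640, a mitochondrial protein known as a marker of oxidative stress in Arabidopsis, read 6.92, 8.55 and 8.53 on arrays 4 to 6 and 5.81, 6.07 and 6.04 on arrays 7 to 9. The triplets did not overlap, and array 4 was well below arrays 5 and 6. Its difference was -2.02 ± 0.26, with a limma adjusted p of 0.0526, and it passed with quantile normalization, with median centring and with array weights. AT5G09570, also a mitochondrial protein, read 6.01, 7.62 and 7.99 against 5.27, 5.12 and 5.61, a difference of -1.87 ± 0.34 with a limma adjusted p of 0.346. Unlike the 8 above, its first-triplet mean of 5.80 lay below its second-triplet mean of 7.20. AT1G56060, AT1G52200 and AT5G48490, a lipid transfer protein, had differences of -1.63 ± 0.24, -1.14 ± 0.16 and -1.03 ± 0.21, with limma adjusted p of 0.0961, 0.0760 and 0.357. AT1G52200 read 8.47, 8.66 and 8.98 against 7.04, 7.96 and 7.69, without overlap.

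No transcript was higher past the threshold, and the 12 named genes with the smallest p among those at least 2-fold higher in the mean of 3 agreeing pairs had limma adjusted p from 0.502 to 0.608. DME (DEMETER), a DNA glycosylase that removes methylated cytosine, read 4.45, 4.82 and 4.51 on arrays 4 to 6 and 5.93, 5.29 and 5.68 on arrays 7 to 9. The triplets did not overlap, and the difference was 1.04 ± 0.26. TIC (TIME FOR COFFEE), a nuclear protein of the circadian clock, read 7.67, 7.07 and 5.34 against 8.19, 7.68 and 7.70. Array 6 was far below the others, and the within-pair differences were 0.53, 0.61 and 2.36, with a mean of 1.17 ± 0.41. AT1G72390, which carries the synonym PHYTOCHROME-DEPENDENT LATE-FLOWERING, read 4.76, 5.26 and 3.72 against 5.62, 5.74 and 5.39, a difference of 1.00 ± 0.25.

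Of the other 9, AT5G52390 had the largest mean difference, 1.59 ± 0.49. It read 4.98, 3.94 and 5.14 on arrays 4 to 6 and 7.46, 6.19 and 5.17 on arrays 7 to 9, so the pair of replicate 3 hardly differed. AT5G51890, a class III peroxidase, read 6.67, 5.70 and 5.94 against 8.57, 6.52 and 6.28. AT1G73040, a jacalin-type lectin, read 5.44, 4.26 and 3.76 against 7.44, 5.43 and 4.01. In both, array 7 alone was well above the second triplet, and the triplets overlapped. AT3G14067, a subtilisin-like protease, had a difference of 1.02 ± 0.28, and its triplets also overlapped. The remaining 5, AT3G13225, AT2G43800 (a formin), AT4G00040 (of the chalcone synthase family), AT2G36350 (a protein kinase) and AT1G76810, had differences from 1.01 to 1.19.

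**Figure D2:**
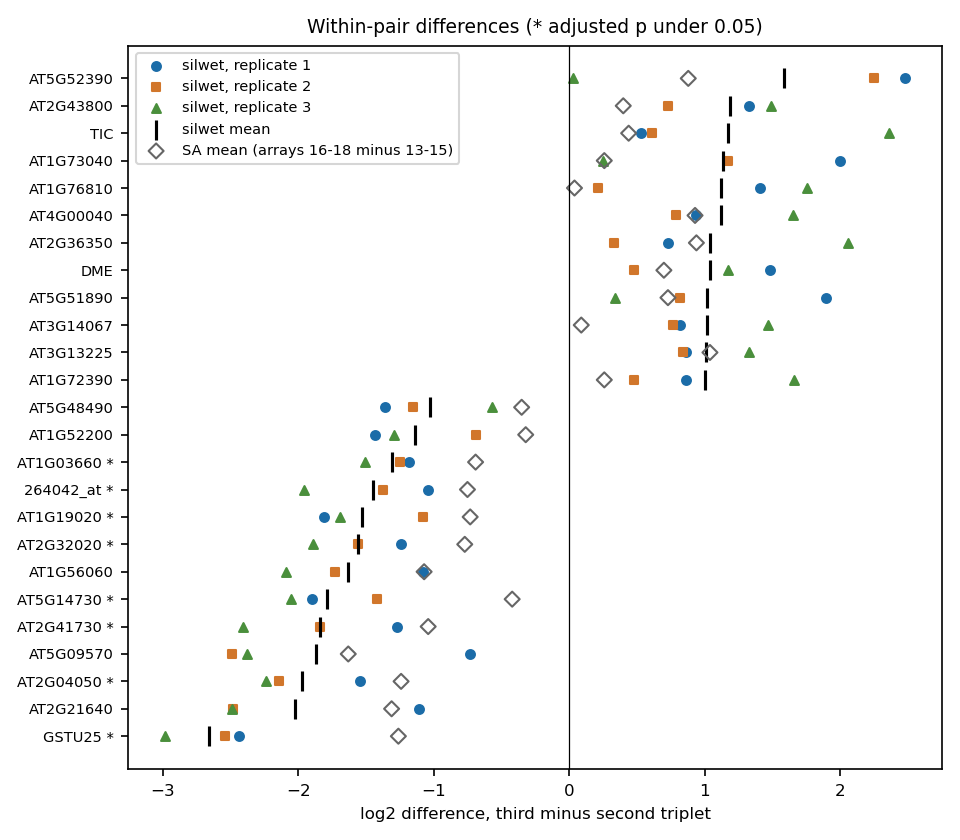
Log2 difference of the third minus the second triplet (horizontal axis) for the 24 named genes and the unnamed probe set 264042_at, with 1 coloured symbol per silwet pair, a black bar for the silwet mean and an open diamond for the SA mean. The within-pair differences of the 8 probe sets marked with an asterisk are all below -1, from -2.44 to -2.98 for GSTU25 and from -1.27 to -2.41 for AT2G41730, while those of AT5G52390 spread from 0.03 to 2.48.

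Among the probe sets that differed at least 2-fold, arrays 4, 6, 7 and 9 most often held the extreme readings of their triplets. In all, 49 probe sets (0.359%) were at least 2-fold lower on average and lower in every pair, and 65 (0.476%) were at least 2-fold higher and higher in every pair. The triplets did not overlap in 39 of the 49 and in 28 of the 65. Over all probe sets tested, 5.71% had all later arrays below all earlier ones, and 6.41% had all above. Among the 65 higher probe sets, array 6 was the lowest of the second triplet in 49 (75.4%, against 35.2% of all probe sets). Array 7 was the highest of the third triplet in 52 (against 40.7% of all probe sets). At the other ends, array 4 was the highest of the second triplet in 46 (70.8%, against 36.7%). Array 9 was the lowest of the third in 44 (67.7%, against 35.6%). Among the 49 lower probe sets, array 6 was the highest of the second triplet in 39 (79.6%, against 31.9%), and array 7 the lowest of the third in 34 (69.4%, against 35.8%). There array 4 was the lowest of the second in 40 (81.6%, against 33.0%), and array 9 the highest of the third in 26 (53.1%, against 35.4%). These shares describe sets chosen by the same values. Without the pair of replicate 3, 4 probe sets were higher past the threshold, and without array 9 alone, 5 were. Those with a name, chosen after their values were seen, were JAL23, a jacalin-related lectin, at 2.83 without the pair, and AT5G52390 and AT1G54020 at 2.34 and 3.18 without array 9.

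**Figure D3:**
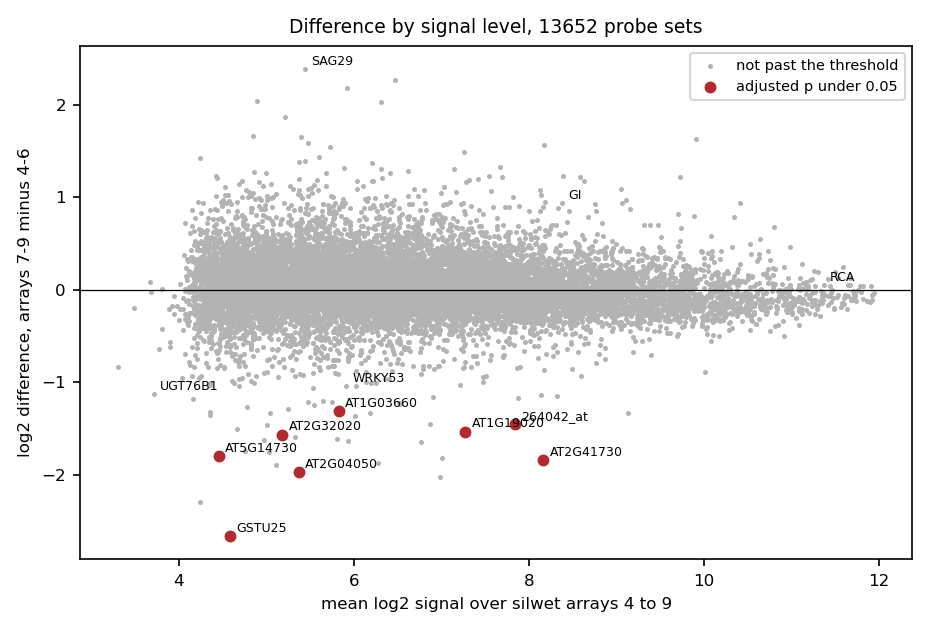
Log2 difference of silwet arrays 7 to 9 minus arrays 4 to 6 (vertical axis) against the mean log2 signal over the 6 arrays (horizontal axis) for 13652 probe sets, with the 8 at an adjusted p under 0.05 in red. GSTU25 lies lowest at -2.66, and SAG29, the highest point at 2.39 (SE 1.27 in the fit of 9 silwet arrays), did not pass.

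The SA arrays of the same 2 triplets, 16 to 18 against 13 to 15, share no array with the silwet comparison. They carry the same replicate numbers, and whether they shared plantings or hybridisations is not stated. In them no probe set passed the threshold, with 690 at an unadjusted limma p under 0.05 and a smallest adjusted p of 0.531. The SA fit also took in arrays 10 to 12 for its spread. On array 10 the log2 ratio of the 3' to the 5' actin probe sets, a sign of RNA quality, was 6.85. It was 1.51 or less on the other arrays, and the GAPDH ratio of array 10 was 3.36. Array 10 also entered the test over all 18 arrays, and its part in the SE and the counts was not tested. Of the 8 probe sets that fell in silwet plants, 8 were lower on average in SA plants and 7 were lower in all 3 SA pairs, against 48.1% and 12.2% of all probe sets tested. The SA difference was -1.24 ± 0.63 for AT2G04050, -1.26 ± 0.65 for GSTU25, -1.04 ± 0.24 for AT2G41730 and -0.75 ± 0.23 for 264042_at. For AT5G14730 it was -0.42 ± 0.43. For AT2G32020, AT1G03660 and AT1G19020 it was -0.77 ± 0.30, -0.69 ± 0.35 and -0.73 ± 0.23. The 8 were chosen by their silwet difference, so the sizes of the 2 steps are set side by side without a reading. The difference between the steps, tested in limma over all 18 arrays, passed for no probe set, with 482 at an unadjusted p under 0.05 and a smallest adjusted p of 0.990. For GSTU25 the SA step minus the silwet step was 1.40 ± 0.66.

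The SA levels of GSTU25 show how the steps differed array by array. SA arrays 13, 14 and 15 read 4.27, 5.63 and 6.01, and arrays 16, 17 and 18 read 4.07, 2.61 and 5.44. The SA triplets overlapped, and most of the mean difference came from the pair of replicate 2. AT2G41730 read 8.08, 8.80 and 9.12 against 7.34, 7.52 and 8.03 in SA plants, without overlap. Of the larger sets, 46 of the 49 probe sets at least 2-fold lower in silwet plants were lower on average in SA plants (93.9%, against 48.1% of all), and 36 in all 3 SA pairs (73.5%, against 12.2%). Of the 65 higher ones, 62 were higher on average in SA plants (95.4%, against 51.9%) and 19 in all 3 SA pairs (29.2%, against 12.9%). SA array 15, of replicate 3 like array 6, was the lowest of arrays 13 to 15 in the 12 named higher genes, except AT1G73040. On these arrays TIC read 8.1, 7.67 and 5.97, AT2G43800 6.02, 6.09 and 4.07, and AT1G73040 5.37, 4.62 and 4.79. The median signal of array 15, 29.7, was the lowest in the series. The part of array 15 in the SA shares of the higher set was not tested. Over all 13652 probe sets, the silwet and SA differences correlated with a Pearson r of 0.40 and a Spearman rho of 0.28, as a description across probe sets that share arrays.

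Of the 33 listed genes of SA response and defence, 8 were named on the array and tested. In limma 0 of the 8 passed in either direction. At an unadjusted p under 0.05, 4 of the 8 (50%) were lower, against 3.52% of all probe sets. The median difference of the 8 was -0.47, against 0.01 for all probe sets, with a range from -1.13 to 0.06. Of the 8, 4 were lower in all 3 pairs, against 16.6% of all probe sets. WRKY53, a transcription factor of defence and leaf senescence, read 6.70, 6.56 and 6.05 on arrays 4 to 6 and 5.10, 5.57 and 5.51 on arrays 7 to 9. The triplets did not overlap, and the difference was -1.04 ± 0.28 with a limma adjusted p of 0.569. UGT76B1, a glucosyltransferase that conjugates isoleucic acid and SA, read 3.65, 3.89 and 5.29 against 3.06, 3.31 and 3.08. In deposited signal these were 12.6, 14.8 and 39.0 against 8.3, 9.9 and 8.5, dim on all but array 6. The pair of replicate 3 gave -2.21 of log2 difference and the others -0.60 and -0.58, with a mean of -1.13 ± 0.37 and a limma adjusted p of 0.607. Its first-triplet mean was 6.77, and the earlier step was -2.50 ± 0.37 with a limma adjusted p of 0.0346. SAG101, a lipase-like partner in immune signalling, differed by -0.56 ± 0.23, AT1G02360, a chitinase, by -0.69 ± 0.30 and AT5G52810 by -0.39 ± 0.18. In SA plants the list's median over the same step was -0.44, and the differences of WRKY53 and UGT76B1 were -0.91 ± 0.25 and -1.91 ± 0.54.

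The list of touch and rapid stress genes had 3 tested members, with a median of -0.64 and 0 past the limma threshold. At an unadjusted p under 0.05, 1 of the 3 was lower, against 3.52% of all probe sets. AT3G02840 read 4.04, 4.12 and 4.13 on arrays 4 to 6 and 3.27, 3.60 and 3.51 on arrays 7 to 9, without overlap. Its difference was -0.64 ± 0.21, and its first-triplet mean of 5.92 lay 1.83 log2 units above the second (the earlier step was -1.83 ± 0.21, with a limma adjusted p of 0.0151). Among 7 glutathione transferases tested, a family counted after values were seen, GSTU25 was the 1 that passed, and the median was -0.15. At an unadjusted p under 0.05, 2 of the 7 were lower, GSTU25 and GSTU27, the second at -0.34 ± 0.14. The 25 UDP-glycosyltransferases and 14 cytochrome P450 genes tested had medians of 0.04 and 0, with 0 past the limma threshold. At an unadjusted p under 0.05, 2 of the glycosyltransferases were lower and 1 higher, and 2 of the P450 genes were lower. Of all probe sets, 3.52% were lower and 4.56% higher at that level. The 4 WRKY factors tested had a median of -0.27, with 0 past the threshold. At an unadjusted p under 0.05, 1 of the 4, WRKY53, was lower, against 3.52% of all probe sets.

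The 3 clock genes tested were higher in all 3 pairs, against 18% of all probe sets, with a median of 0.68. In limma 0 passed the threshold and 3 were higher at an unadjusted p under 0.05, against 4.56% of all probe sets. GI (GIGANTEA), a clock protein that also acts in flowering time, read 8.55, 8.27 and 6.90 on arrays 4 to 6 and 9.05, 8.51 and 8.96 on arrays 7 to 9. Array 6 was low, array 8 was just under array 4, and the difference was 0.93 ± 0.34 with a limma adjusted p of 0.608. COR27, a cold-regulated gene tied to the clock, read 8.89, 7.79 and 8.37 against 9.22, 8.67 and 8.82, a difference of 0.55 ± 0.16. AT4G33980 differed by 0.68 ± 0.25. The triplets of all 3 overlapped. In SA plants their median was 0.75, with differences of 0.49 ± 0.47 for GI, 0.75 ± 0.27 for COR27 and 0.81 ± 0.23 for AT4G33980. The time of day of the harvests is not given in the labels.

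Of the 69 chloroplast-encoded genes on the array, 64 were tested, and 0 passed in either direction in limma, with 12 lower at an unadjusted p under 0.05. They were lower on average in 59 of 64 (92.2%, against 47.8% of all probe sets) and lower in all 3 pairs in 30 (46.9%, against 16.6%). The 12 are 18.8% of the list, against 3.52% of all probe sets. Their median was -0.27, with a range from -0.89 to 0.26, against 0.01 for all probe sets. Their mean per array was 8.73, 8.93 and 9.08 on arrays 4 to 6 and 8.22, 8.64 and 9.01 on arrays 7 to 9. The triplets overlapped, replicate 1 was lowest and replicate 3 highest in both, and an exact permutation test gave p = 0.30 (two-sided, 3 against 3, smallest possible 0.10, adjusted 0.80 over 6 array quantities). All 64 members are read on the same arrays and from the same RNA, so their count is not 64 separate measurements. The subunit gene of ATP synthase atpI read 4.85, 6.38 and 5.01 against 3.26, 5.52 and 4.78, a difference of -0.89 ± 0.27. The ribosomal protein gene rpl20 differed by -0.66 ± 0.19, rpoC2, of the plastid RNA polymerase, by -0.47 ± 0.15 and ccsA by -0.37 ± 0.13. By contrast psbA, the D1 protein of photosystem II, ranged from 6.56 to 11.10 over the 6 arrays, and its difference was -0.27 ± 0.59. In SA plants the median of the list was 0.34 over the same step. The 10 mitochondrion-encoded genes tested had a median of -0.12, with 0 past the limma threshold. At an unadjusted p under 0.05, 2 of the 10 were lower, against 3.52% of all probe sets. These 2 were ccb206, of cytochrome c maturation, and cox2, a subunit of cytochrome c oxidase. The former read 4.88, 4.92 and 4.81 against 3.90, 4.23 and 4.06, without overlap and with narrow spread, a difference of -0.81 ± 0.24. The latter differed by -0.58 ± 0.23, also without overlap. Of all probe sets, 5.71% had all later arrays below all earlier ones. In SA plants ccb206 and cox2 differed by -0.07 ± 0.26 and -0.22 ± 0.36.

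**Figure D4:**
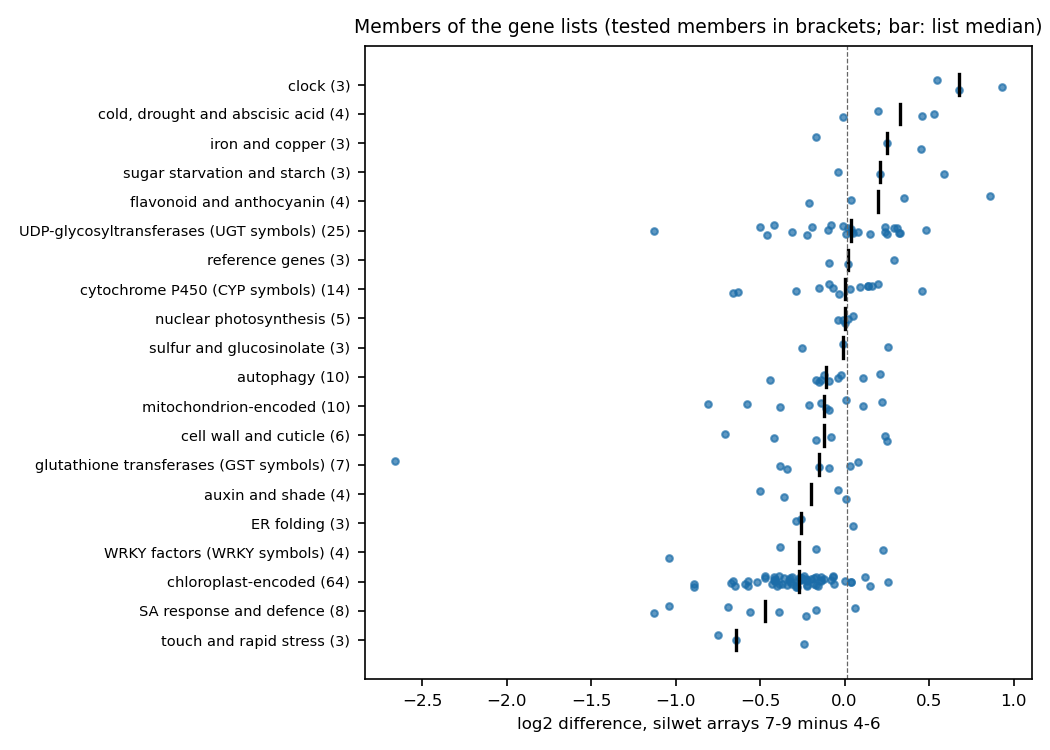
Log2 difference of silwet arrays 7 to 9 minus 4 to 6 (horizontal axis) for each tested member of the gene lists with at least 3 tested members, with a black bar at each list's median and a dashed line at the median of all probe sets. The median is 0.68 for the clock genes and -0.27 for the chloroplast-encoded genes, and GSTU25, at -2.66, is the point farthest from 0.

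The other lists had 0 members past the limma threshold. At an unadjusted p under 0.05 they had COR47 and PYE, both higher. Of all probe sets, 4.56% were higher and 3.52% lower at that level. The 5 nuclear photosynthesis genes tested had a median of 0, and RCA, the activase of Rubisco and the leaf marker named on the array, read 11.24, 11.48 and 11.31 against 11.40, 11.28 and 11.52. Among 4 cold, drought and abscisic acid genes the median was 0.33, and COR47, a dehydrin, differed by 0.46 ± 0.17. COR15A, a chloroplast cold-protection protein, differed by 0.20 ± 0.16. Of 10 autophagy genes tested, 8 were lower on average, against 47.8% of all probe sets, and 4 in all 3 pairs, against 16.6%, with a median of -0.11. ATG8E, of the ubiquitin-like family that coats autophagosomes, differed by -0.44 ± 0.21. The senescence list had 1 tested member, SAG29 (SWEET15, a sugar transporter), which read 6.09, 4.21 and 2.43 on arrays 4 to 6 and 7.62, 7.54 and 4.74 on arrays 7 to 9. It was higher in every pair and overlapped between triplets, and 1 value lay under the floor. Its difference was 2.39 ± 1.27, with a limma adjusted p of 0.646, beside 2.23 ± 1.07 in SA plants.

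Medians for the smaller lists were 0.25 for iron and copper (3 tested), 0.21 for sugar and starch (3), 0.20 for flavonoids (4), 0.03 for jasmonate and ethylene (2), -0.01 for sulfur and glucosinolates (3), -0.12 for cell wall and cuticle (6), -0.20 for auxin and shade (4) and -0.26 for endoplasmic reticulum folding (3). PYE, a regulator of iron deficiency, read 6.16, 6.53 and 5.55 against 6.52, 6.74 and 6.34, a difference of 0.45 ± 0.17. MCCA, a subunit of the carboxylase of leucine breakdown, differed by 0.59 ± 0.29. In endoplasmic reticulum folding, AT5G07340 differed by -0.26 ± 0.16 and ATERDJ3B, a co-chaperone, by -0.29 ± 0.21. PDF1.2, a defensin of the jasmonate and ethylene response, read 10.88, 11.36 and 7.90 against 8.64, 11.36 and 9.73. Its differences ran in opposite directions in replicates 1 and 3, with a mean of -0.14 ± 1.25. AT1G47400, of the iron list, was likewise split, at -0.17 ± 0.45. The reference genes AT2G28390 and AT4G34270 differed by 0.29 ± 0.16 and -0.09 ± 0.15. The phosphate, nitrogen, cell cycle, flowering time and heat shock lists had 0 members named on the array, so 0 were tested. Other genes of these kinds, not on the lists, were not looked at as groups.

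As to the arrays themselves, the 6 correlated with each other between 0.911 and 0.972. Their median signals were 34.8, 32.9 and 32.2 on arrays 4 to 6 and 36.1, 34.6 and 34.0 on arrays 7 to 9. The log2 ratio of the 3' to the 5' actin probe sets, a sign of RNA quality, was 0.508, 1.43 and 0.686 against 0.584, 0.812 and 0.672, so array 5 stood highest. None of the 6 array quantities tested passed the exact permutation test, whose smallest possible p with 3 against 3 is 0.10 and which does not use the pairing. Within pairs, the median signal was higher on the later array in all 3, and the chloroplast mean was lower in all 3. The mean log2 signal of the hybridisation spikes, added control transcripts, was also lower in all 3 pairs, at 8.02, 8.60 and 8.75 against 7.79, 8.29 and 8.57. The part of these quantities in the results was not tested. The leaf and root markers named on the array were 1 each. The root marker PYK10, a beta-glucosidase, read 6.31, 6.43 and 7.42 against 5.31, 8.03 and 6.19, with no order by triplet, and no flower or seed marker was named. In bulk RNA, fewer cells of a type and less RNA per cell cannot be told apart.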

How the data were processed

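The authors deposited intensities, namely MAS5 signals on a linear scale for each probe set. The submitters' processing notes name MAS5 without a version, and from the values all arrays share a trimmed mean of 100.0. Replicate numbers and doses were taken from the labels. The triplets were formed by title number, and their order in time is not given in the labels. Signals under an array's 20th percentile were raised to it, log2 was taken, and controls and probe sets under the 40th percentile of mean level were left out. Each comparison used limma 3.58.1 in R 4.3.3 (eBayes with trend and robust) with triplet and replicate number as terms. The silwet fit used 9 arrays, with 4 residual degrees of freedom, the SA fit 9 and the difference between treatments all 18. On arrays 4 to 9, 0 values of the 8 probe sets that passed lay under this floor. Array quantities were compared by exact permutation in Python 3.11.15. The number of arrays limits precision.

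The pairing comes from the titles. Deviations from triplet means of same-numbered arrays correlated at 0.276, 0.101 and 0.132 for replicates 1, 2 and 3, and those of different numbers between -0.265 and 0.141, over probe sets.

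The table has 22810 probe sets, including 64 controls. The supplied annotation gives a single gene for 13513, more than 1 for 503 and none for 8794. Names were updated where possible (13436 of 13513) from an NCBI table of TAIR10.1, and loci without a symbol keep the locus, with roles given as background. The comparison and the lists were chosen with earlier results of these data known.

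Named were up to 12 genes in each direction, past the threshold or, failing that, with the smallest p among those at least 2-fold different with 3 agreeing pairs. Fixed genes were added, as were list members with 3 agreeing pairs among the up to 4 with the smallest p. Where a gene had several probe sets, the one with the highest mean stood for it. Cell type markers were leaf, root, and flower and seed genes. A list of ribosomal protein genes was planned and could not be made from the tables.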

Additional observations from a re-analysis of the deposited data

Results flagged for a closer look

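For 14 of the 64 chloroplast-encoded genes tested (21.9%, against 1.22% of all probe sets), every silwet pair was lower on the later array and every SA pair higher. Of the genes named in the results, 2 were among them, rpl20 and atpI. For rpl20, the silwet differences were -0.85, -0.78 and -0.36, and the SA step minus the silwet step was 1.38 ± 0.57 log2 units, with an unadjusted p of 0.0308 and an adjusted p of 0.990 in limma. For atpI, the silwet differences were -1.59, -0.86 and -0.23, and the SA step minus the silwet step was 1.52 ± 0.39, with an unadjusted p of 0.00133 and an adjusted p of 0.990 in limma. Neither passed the test of the difference. Over the same steps the mean of the tested chloroplast-encoded genes was 8.73, 8.93 and 9.08 then 8.22, 8.64 and 9.01 on silwet arrays, and 8.71, 8.99 and 9.13 then 8.91, 9.46 and 9.27 on SA arrays. SA array 17, with the mean of 9.46, had a log2 3' to 5' ratio of 1.51 for actin, against 0.538 and 0.605 on arrays 16 and 18. Its GAPDH ratio was 1.32, against 0.423 and 0.310. Array 10, which entered the test of the difference, had a chloroplast mean of 6.74. The part of the chloroplast mean and of RNA quality in these results was not tested.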

How the results depend on the processing

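The count of 8 lower probe sets was 8 with no floor, 9 with quantile normalization, 11 with median centring and 10 with array weights. It was 6 in a fit of all 18 arrays with the replicate block, and 3 of these 6 were among the main 8. It fell to 5 with a filter at the 60th percentile, to 1 with no filter or without the trend in eBayes, and to 0 with 16 added to the signal or with the 6 arrays only. With no replicate block, so without the pairing, it was 0. Leaving out 1 array or 1 pair gave from 0 to 10 lower, with 0 without array 5, without array 6, and without the pair of replicate 2 or 3, 1 without array 9, 2 without array 8 and 3 without array 4. The count of higher probe sets was 0 in the alternatives run, except from 0 to 5 on leaving out arrays: 4 without the pair of replicate 3 and 5 without array 9. All 8 main calls that an alternative tested stayed lower with an unadjusted limma p under 0.05, and their smallest difference was -1.02, with 16 added to the signal. The counts for the SA step and for the difference between treatments stayed at 0 under the alternatives run. RCA reversed to -0.02 with median centring and psbA to 0.02 with array weights. On leaving out arrays or pairs, psbA ranged from -0.99 to 0.45, PDF1.2 from -1.54 to 0.92, AT1G47400 from -0.78 to 0.50, AT4G34270 from -0.22 to 0.00 and RCA from -0.05 to 0.18. The cause was not tested.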
